A study of Rattus norvegicus with 6 samples.

Results

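The genes described here encode SR proteins, heterogeneous nuclear ribonucleoproteins (hnRNPs) and proteins of the spliceosome. A gene was taken when its symbol in the platform annotation starts with Srsf, Hnrnp, Snrp, Snrnp, Sf3a, Sf3b, Luc7l or Prpf, or is Tra2a, Tra2b, Rbm39, U2af1 or U2af2. The rule left out 2 hnRNP genes by name, which are not analysed here. It found 67 of the 14506 genes tested, each represented by the transcript cluster, the array's unit of measurement, with the highest mean over all arrays. All 67 were measured and none was filtered out. The rule used names only, and the names were the only basis for calling them splicing genes. It was set with earlier results of these data known.

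Motor neurons were taken from rat embryos at day 13.5 and kept in primary culture for 2 days, then given 1 microM camptothecin or DMSO, the solvent control, for 2 h. Camptothecin holds topoisomerase 1 in its DNA-bound state. There were 3 arrays per treatment, called biological replicates in the labels. Whether they came from separate dissections is not said, and the p-values thus cover only the spread among these samples, which may be technical. The labels name no strain, sex or genotype.

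Splicing removes introns from nuclear transcripts. The U1 particle recognises the 5′ splice site, the U2 particle and U2AF recognise the branch site and the 3′ splice site, and the tri-snRNP of U4, U6 and U5 then joins to build the catalytic centre. SR proteins mostly promote, and hnRNPs often repress, the use of nearby splice sites, and many genes of both kinds limit their own output through unproductively spliced transcripts. Topoisomerase 1 has also been described as a kinase of SR proteins. An array value summed over a whole transcript cluster shows the amount of RNA and not how it was spliced.

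The arrays behaved alike in bulk, with Pearson's r of 0.992 to 0.995 within a treatment and 0.983 to 0.985 between treatments over 29214 clusters. The median log2 value of an array was 6.22 to 6.28 in DMSO and 6.31 to 6.33 in camptothecin. In bulk cultures, fewer cells of a type and less RNA per cell cannot be told apart. Of 12 measured motor neuron markers 3 rose and 1 fell (mean level of the list 7.20 to 7.22 in DMSO and 7.18 to 7.31 in camptothecin), and 5 were dimmer than the median cluster, Isl1 and Slc18a3, which define the cells, among them. Of 9 spinal interneuron markers 5 fell and 0 rose (8.52 to 8.62 in DMSO, 8.12 to 8.24 in camptothecin). The 5 that fell are genes spanning 40.1 kb to 91.2 kb of the genome. The other 4 span 1.82 kb to 8.44 kb, and each had a difference above 0 that did not pass. Of 9 genes of dividing cells 3 rose and 0 fell (8.40 to 8.44 in DMSO, 8.52 to 8.66 in camptothecin). Progenitor and astroglial markers had 1 fall in 10 and fibroblast markers 1 fall in 9. Among 8 markers of endothelium, blood and microglia limma called 0 (2 had an unadjusted p under 0.05). The part of these cells in the results below was not tested.

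One camptothecin array stood apart for splicing genes. Camptothecin replicate 2 held the highest of the 3 camptothecin values for 58 of the 67 genes (86.6%), against 49.6% of all genes. Its value exceeded both other camptothecin arrays by over 0.3 on the log2 scale for 6 splicing genes (8.96%, against 2.67% of all genes). The median over the 67 genes of the distance from the DMSO mean was 0.01 on camptothecin replicate 1, 0.18 on replicate 2 and 0.03 on replicate 3, as the plot of the camptothecin arrays by class shows. Without that array the sign of the change turned for 8 splicing genes (11.9%, against 8.33% of all genes), and its size moved by over 1.5 times for 26 more (38.8%, against 28.9%). None of these 34 had passed the test, and neither had any of the 1208 that turned or 4192 that moved among all genes. The absence of calls is thus not particular to the splicing genes. The 8 were Srsf4, Srsf9, Snrpb, Sf3b3, Hnrnpk, Hnrnpl, Hnrnpf and Prpf38a, all slightly higher with the array and lower without it. On the DMSO side, replicate 1 held the highest of the 3 DMSO values for 45 of the 67 genes, against 6262 of all 14506 genes. Without DMSO replicate 1 the median change of the splicing genes was 0.09, beside 0.06 with all arrays.

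**Figure D1:**
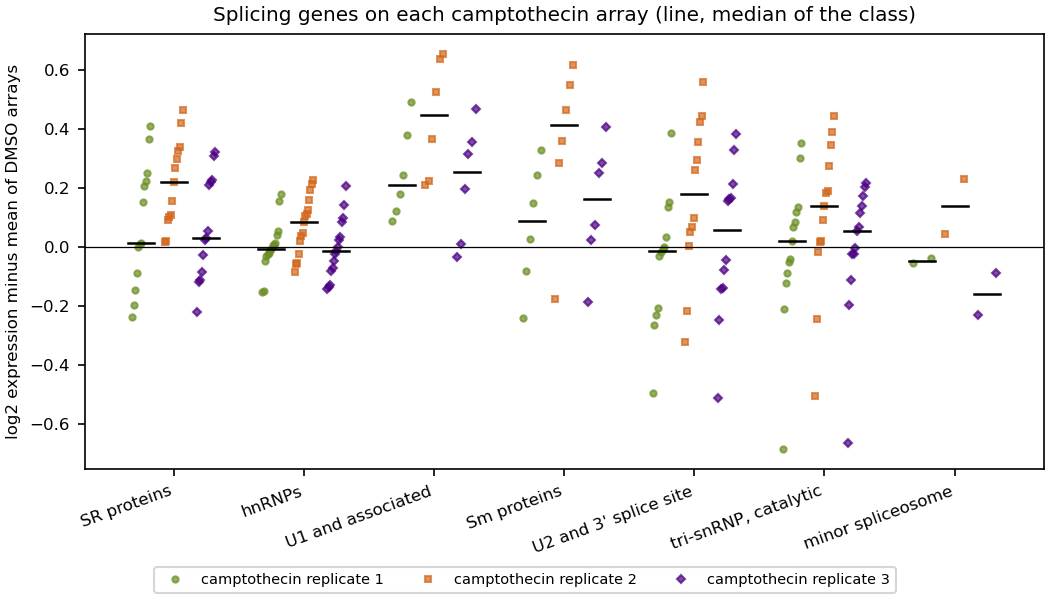
Log2 expression of each splicing gene on each camptothecin array minus its mean over the 3 DMSO arrays (vertical axis), grouped by class (horizontal axis); black lines are class medians. Camptothecin replicate 2 lies highest in every class, with a median of 0.22 for SR proteins against 0.01 and 0.03 on replicates 1 and 3.

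Most splicing genes did not change past the test after camptothecin, and those that did moved by small amounts in both directions. Of the 67 genes 8 rose, 3 fell and 56 did not pass (limma, Benjamini-Hochberg adjusted p under 0.05 over all clusters, n = 3 per treatment). The rises were Luc7l3, Snrnp70, Sf3a3, Srsf6, Srsf11, Snrpf, Snrpg and Srsf5, and the falls were Prpf6, Rbm39 and Sf3b1. Called genes of either direction made up 16.4% of the splicing genes and 20.7% of all genes. The rises made up 11.9% of the splicing genes, beside 11.3% of all genes, and the falls 4.48% beside 9.35%. The median log2 change was 0.06 for the splicing genes and 0.06 for all genes. No splicing gene reached a change of 2-fold, and the 95% intervals of all 67 lay between -0.80 and 0.70.

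A narrower background, cut at the outer limits of span and brightness of the splicing genes, was also counted. Among the 5284 genes no longer than the longest and no dimmer than the dimmest splicing gene, 23.7% rose and 8.71% fell, more than the 11.9% and 4.48% of the splicing genes. These shares were not tested against each other. Only the limits are shared, since the median log2 level of the 5284 genes was 8.29, beside 9.58 for the splicing genes. Their median change was 0.14, beside 0.06 for the splicing genes. The standard deviation of the log2 changes was 0.20 over the splicing genes and 0.30 over all genes.

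The count of rises changed when an array was left out and with the scale. It was 7 without camptothecin replicate 1 or 2 and 5 without camptothecin replicate 3. It was 5, 4 and 3 without DMSO replicates 1, 2 and 3, and 2 genes fell in each of these fits. A fit with 1 array fewer has less power, so a lost call does not by itself point at the array left out. Calls among all genes under these fits are not given here. With each array centred on its median 6 rose and 5 fell, so that 54.5% of the calls were higher instead of 72.7%. With each array centred on its ribosomal protein genes, which moves the median of all clusters from 0.07 to -0.18, 1 splicing gene rose and 29 fell. The ribosomal genes themselves averaged 11.24 to 11.25 on the DMSO arrays and 11.46 to 11.56 on the camptothecin arrays. This centring thus lowers the change of every gene by the same amount. The median change was then -0.19 for the splicing genes and -0.19 for all genes, whose calls are not given here. Only Prpf6 kept its call in all 16 alternatives run for single genes.

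**Figure D2:**
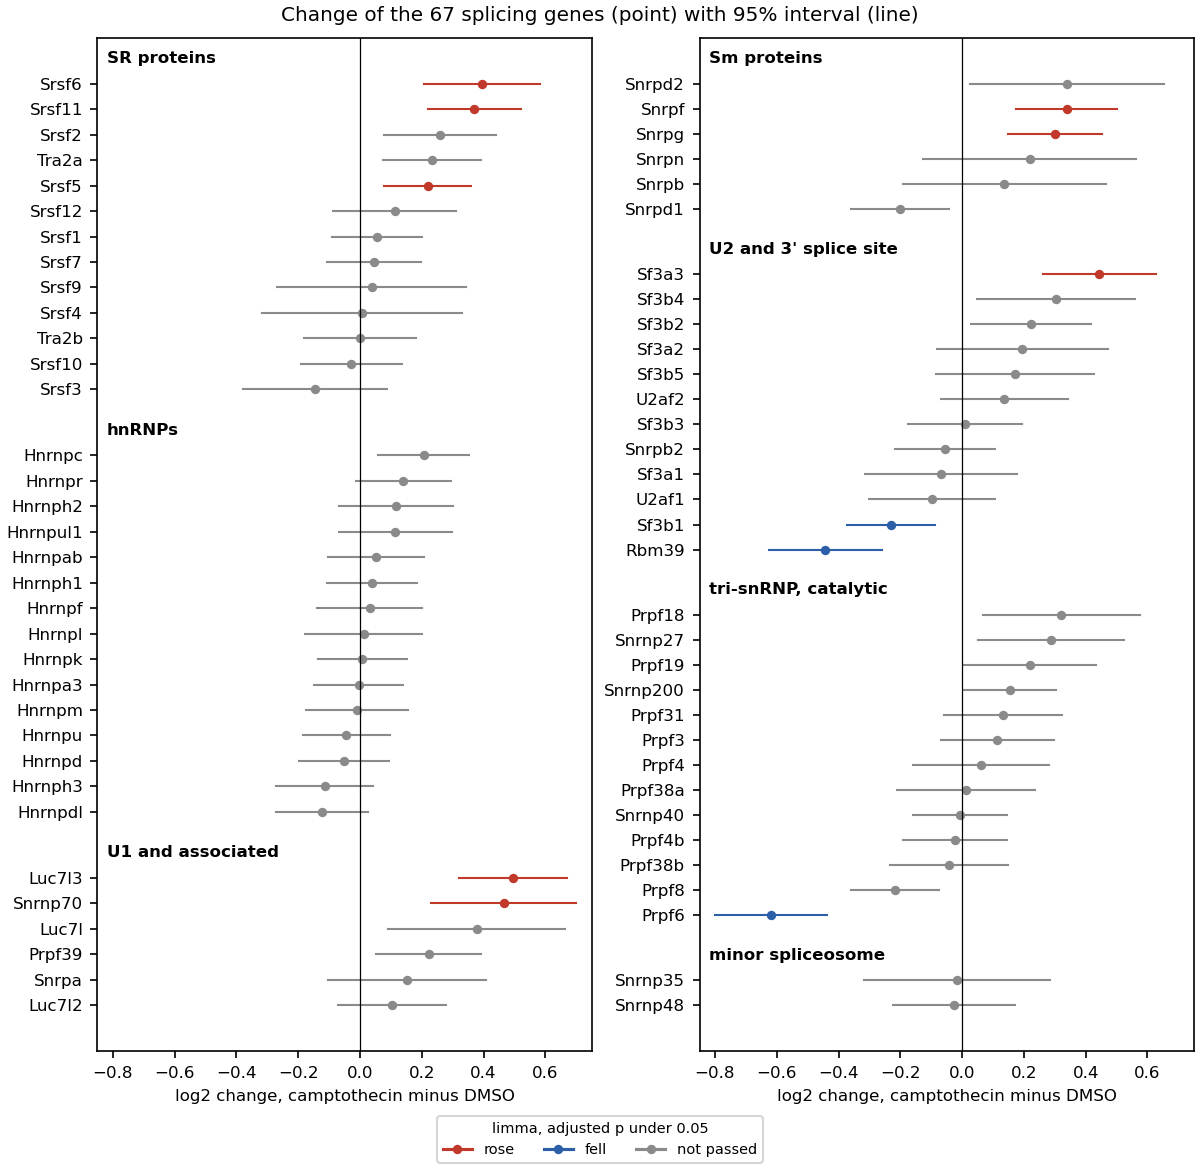
Log2 change, camptothecin minus DMSO, of the 67 splicing genes (horizontal axis) by class and gene (vertical axis); points are limma estimates and lines their 95% intervals, n = 3 arrays per treatment. The 8 genes that rose lie between 0.22 and 0.50 and the 3 that fell between -0.62 and -0.23, while the 15 hnRNP genes lie between -0.12 and 0.21.

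SR proteins bind exonic enhancers through RNA recognition motifs and contact the splicing machinery through domains rich in arginine and serine. Of the 13 SR protein genes 3 rose (23.1%, against 11.3% of all genes) and 0 fell (against 9.35%), and their median change was 0.05. Srsf6, an SR protein of the classical group, had values of 8.85, 8.78 and 8.66 on the DMSO arrays and 9.18, 9.23 and 9.07 on the camptothecin arrays. The groups did not overlap, and the rise was 0.40 on the log2 scale (SE 0.08, 1.32-fold, adjusted p = 0.0168). The call was lost without DMSO replicate 2 and without DMSO replicate 3.

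Srsf11, an SR-related protein, had values of 10.07, 10.07 and 10.01 in DMSO and 10.42, 10.47 and 10.38 in camptothecin. Its arrays were tightly grouped and apart, with a rise of 0.37 (SE 0.06, 1.29-fold, adjusted p = 0.00953) that stayed past the test with any 1 array left out. Srsf5 was measured at 11.10, 11.13 and 11.10 in DMSO and 11.33, 11.33 and 11.32 in camptothecin. That narrow difference of 0.22 (SE 0.06, adjusted p = 0.0453) lay at the threshold, was lost with any 1 array left out, and turned to -0.031 with ribosomal centring.

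Srsf2 and Tra2a did not pass, although all their camptothecin values lay above all DMSO values. Srsf2, which also acts in transcription elongation, differed by 0.26 (SE 0.08, adjusted p = 0.0583), and Tra2a, a homologue of a fly sex determination factor, by 0.23 (SE 0.07, adjusted p = 0.0555). Its paralogue Tra2b differed by -0.00 (95% interval -0.18 to 0.18). The other Tra2b cluster gave -0.08 and did not pass (adjusted p = 0.498). Srsf1, the founding member of the family, differed by 0.05 (-0.09 to 0.20), and Srsf7, which also acts in mRNA export, by 0.05 (-0.11 to 0.20).

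The lowest value of the class was that of Srsf3, the smallest classical SR protein. It was measured at 9.61, 9.40 and 9.42 in DMSO and 9.24, 9.50 and 9.26 in camptothecin, where replicate 2 alone reached into the DMSO range. The difference was -0.15 (SE 0.10, adjusted p = 0.371), and -0.23 without camptothecin replicate 2. Srsf4 shows the weight of that array more plainly, at 9.38, 9.91 and 9.47 in camptothecin around a DMSO mean of 9.58, and differed by 0.01 with that array and -0.15 without it. Srsf9 likewise differed by 0.04 with the array and by -0.11 without it. Srsf10 and Srsf12 differed by -0.03 and 0.11 and did not pass.

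The hnRNPs coat nascent transcripts and influence splice site choice, export and stability. Of the 15 hnRNP genes 0 passed the test with limma at an adjusted p (20.7% of all genes did), and 1 had an unadjusted p under 0.05. Their standard errors ran from 0.06 to 0.08, and their changes from -0.12 to 0.21 with a median of 0.01. These are bright genes, with a median log2 level of 11.5, beside 9.58 for all splicing genes and 6.70 for all genes. Spearman's rho of level and the SD over the camptothecin arrays was -0.72 over the splicing genes and -0.33 over all genes with a span. The effect of level on the hnRNP changes was not tested. The 95% intervals of all 15 lay between -0.27 and 0.35. A p that misses the threshold does not show that these genes stayed level. With ribosomal centring, which lowers the change of every gene, 11 of the 15 fell, and the changes of all 15 ran from -0.37 to -0.04. With the arrays centred on their median 0 were called. Hnrnpc rose with quantile normalization, without dim clusters and with only 1-symbol clusters, and with the trended, robust variance model 2 rose (Hnrnpc and Hnrnpr) and 1 fell (Hnrnpdl). The median of the 15 was -0.02 without camptothecin replicate 2.

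Hnrnpc, whose protein binds uridine tracts in introns, had the largest difference of the class. It was measured at 10.80, 10.82 and 10.74 in DMSO and at 10.97, 11.02 and 11.00 in camptothecin, without overlap, a difference of 0.21 (SE 0.06, adjusted p = 0.0628). Hnrnpdl had the lowest, with 11.63, 11.56 and 11.55 in DMSO and 11.43, 11.50 and 11.45 in camptothecin. That difference of -0.12 (SE 0.06, adjusted p = 0.237) also came without overlap between the groups. Hnrnpk, which binds cytosine-rich RNA, was measured at 12.29, 12.25 and 12.25 in DMSO and 12.24, 12.30 and 12.26 in camptothecin. Its change was 0.01 (95% interval -0.14 to 0.15).

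Hnrnpu, a scaffold protein of nuclear RNA, differed by -0.04, Hnrnpd, which binds AU-rich elements, by -0.05 and Hnrnph1, which binds runs of guanines, by 0.04. Hnrnpa3 had 8 clusters with this 1 symbol, and their changes ran from -0.02 to 0.02. Such multiple clusters can come from near-identical copies in the genome, so which copy each reports is uncertain. The hnRNP genes Hnrnpf and Hnrnpk had 2 clusters each, with changes of 0.03 and 0.13 for the first and 0.01 and -0.00 for the second.

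Genes of the U1 particle and its partners lay highest among the classes. The protein of Snrnp70 binds U1 RNA directly, and the Luc7l proteins are relatives of a yeast U1 component that helps choose 5′ splice sites. All 6 had a difference above 0, as did 9064 of all 14506 genes. The median of the 6 was 0.30, beside 0.06 for all genes, and 2 rose (33.3%, against 11.3% of all genes). The median was 0.31 with quantile normalization, 0.23 with median centring and 0.05 with ribosomal centring, where 3 of the 6 turned below 0 (Luc7l2 at -0.15, Snrpa at -0.10 and Prpf39 at -0.03).

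Luc7l3 had the largest rise of all splicing genes. It was measured at 11.02, 10.88 and 10.83 in DMSO and at 11.40, 11.44 and 11.38 in camptothecin. The groups lay well apart and the rise was 0.50 (SE 0.07, 1.41-fold, adjusted p = 0.00551). It was the 1 splicing gene that still rose with ribosomal centring (0.25), and its call was lost only when the test asked for more than a 1.2-fold change.

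Snrnp70 was measured at 9.54, 9.66 and 9.51 in DMSO and at 9.95, 10.23 and 9.93 in camptothecin. All camptothecin arrays lay above DMSO, with replicate 2 highest, and the rise was 0.47 (SE 0.10, 1.38-fold, adjusted p = 0.0207). Its call was lost without DMSO replicate 1 and without DMSO replicate 3. Luc7l differed by 0.38 (SE 0.12, adjusted p = 0.0762) and Prpf39 by 0.22 (SE 0.07, adjusted p = 0.0767), both without overlap and neither past the test; Luc7l differed by 0.25 without camptothecin replicate 2. Luc7l2, the other Luc7-like gene, had values of 9.35, 9.37 and 9.41 in DMSO and 9.46, 9.59 and 9.39 in camptothecin, which overlap, a difference of 0.10 (SE 0.07, adjusted p = 0.395). Snrpa, a U1 RNA binding protein, differed by 0.15 with an interval of -0.10 to 0.41. Without camptothecin replicate 2 these differences were 0.05 for Luc7l2 and 0.04 for Snrpa.

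Sm proteins form the ring shared by most spliceosomal particles. Of 6 measured Sm genes 2 rose (33.3%, against 11.3% of all genes) and 0 fell (against 9.35%). Their median change was 0.26, and 0.13 without camptothecin replicate 2. Snrpf was measured at 9.38, 9.35 and 9.38 in DMSO and 9.62, 9.73 and 9.78 in camptothecin, a rise of 0.34 (SE 0.07, adjusted p = 0.0179). Snrpg was measured at 10.56, 10.64 and 10.66 in DMSO and 10.95, 10.91 and 10.91 in camptothecin, a rise of 0.30 (SE 0.06, adjusted p = 0.0204). For both, the groups were separate, but the call of Snrpf was lost in 4 of the 6 fits without 1 array (camptothecin replicate 3 and each DMSO array) and that of Snrpg in 5, all but that without camptothecin replicate 2.

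Snrpd1 pointed the other way, with 11.72, 11.68 and 11.80 in DMSO and 11.50, 11.56 and 11.55 in camptothecin. Its difference of -0.20 (SE 0.07, adjusted p = 0.085) did not pass in the main test. It passed under quantile normalization, under both centrings, without dim clusters (adjusted p = 0.0271) and with the trended, robust variance model (adjusted p = 0.00555), and over all alternatives its adjusted p ran from 0.00381 to 1.00, the highest in the test against a 1.2-fold change. Snrpd2 differed by 0.34 (SE 0.13, adjusted p = 0.13), and by 0.20 without camptothecin replicate 2. Its values were 9.19, 9.20 and 8.99 in DMSO and 9.28, 9.74 and 9.38 in camptothecin, with replicate 2 far above the other arrays. The related genes Snrpb and Snrpn, whose proteins are nearly identical, differed by 0.14 and 0.22 with camptothecin SDs of 0.29 for each. Without camptothecin replicate 2 these values were -0.03 and 0.05.

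Genes that act at the branch site and the 3′ splice site went both ways. Of 12 such genes 1 rose (8.33%, against 11.3% of all genes) and 2 fell (16.7%, against 9.35%). Rbm39, a splicing coactivator related to the large U2AF subunit, was measured at 11.34, 11.31 and 11.25 in DMSO and at 10.80, 10.98 and 10.79 in camptothecin. All camptothecin values were lower, by 0.44 in the mean (log2 change -0.44, SE 0.08, 1.36-fold, adjusted p = 0.00981), and the second cluster of the gene gave -0.40. The call stood with any 1 array left out.

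Sf3a3 and Sf3b1 encode subunits of the same U2 assembly, in its SF3a and SF3b parts, and changed in opposite directions. Sf3a3 was measured at 8.84, 8.73 and 8.75 in DMSO and at 9.16, 9.33 and 9.16 in camptothecin, a rise of 0.44 (SE 0.08, 1.36-fold, adjusted p = 0.00963). Sf3b1, which holds the branch site helix, was measured at 10.97, 10.91 and 10.91 in DMSO and at 10.70, 10.71 and 10.68 in camptothecin. Its change was -0.23 (SE 0.06, adjusted p = 0.0416), near the threshold and lost with any 1 array left out. The log2 difference between the Sf3a3 and Sf3b1 clusters was -2.18 to -2.13 on the DMSO arrays and -1.54 to -1.38 on the camptothecin arrays, a shift of 0.67 that no scaling of whole arrays can alter. The pair was chosen after its values were seen, and the shift is given without a test.

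The other SF3 genes did not pass. Sf3a2 differed by 0.20 and Sf3a1 by -0.07, while Sf3b4, Sf3b2, Sf3b5 and Sf3b3 differed by 0.30, 0.22, 0.17 and 0.01. Without camptothecin replicate 2, Sf3a2 differed by 0.08, Sf3a1 by -0.15, Sf3b5 by 0.11 and Sf3b3 by -0.02. U2af1 and U2af2, the small and large subunits of the factor that reads the end of the intron, differed by -0.10 (95% interval -0.30 to 0.11) and 0.14 (-0.07 to 0.34), or by -0.17 and 0.07 without that array. Snrpb2, a U2 RNA binding protein, differed by -0.05.

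**Figure D3:**
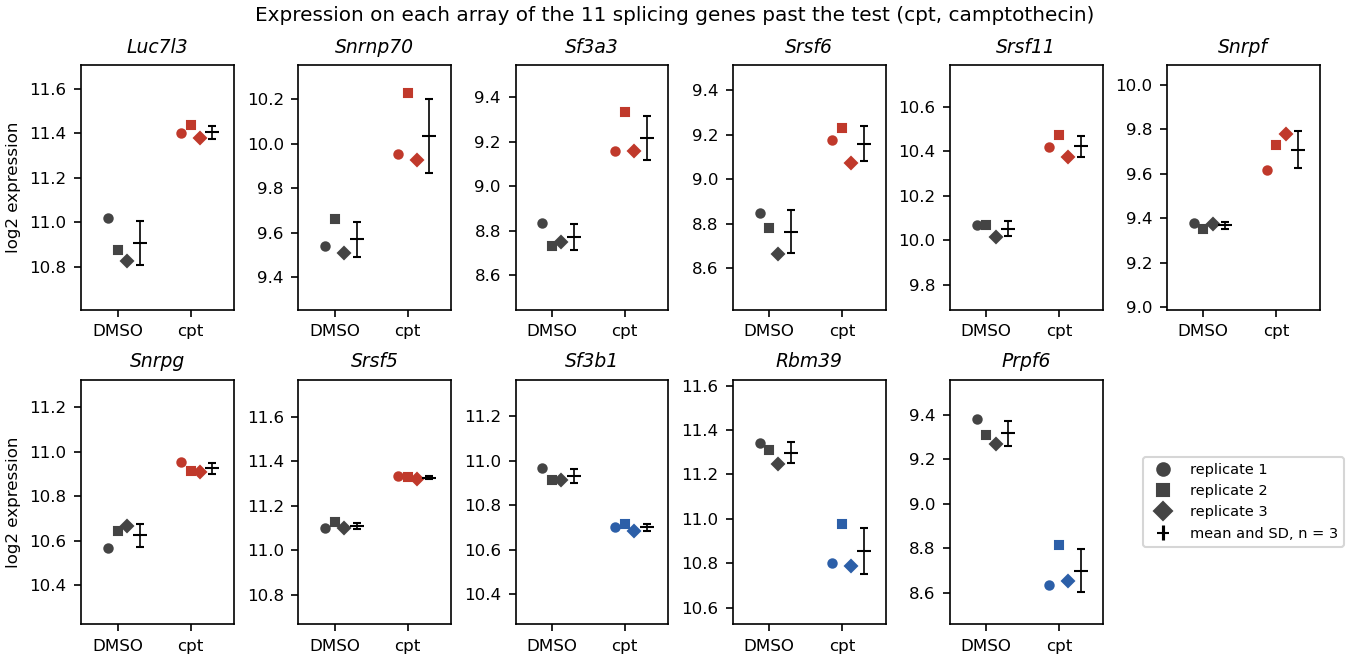
Log2 expression (vertical axis, the same length of scale in each panel) on each of the 3 DMSO and 3 camptothecin (cpt) arrays for the 11 splicing genes past the test; symbols mark the replicate number and black bars the mean and SD, n = 3. In all 11 panels the groups do not overlap, from Luc7l3 (0.50 higher) to Prpf6 (lower, log2 change -0.62). The genes were picked by a test on these same values, so the separation is not separate evidence.

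Among 13 genes of the tri-snRNP and the catalytic stage 0 rose (against 11.3% of all genes) and 1 fell (7.69%, against 9.35%). Prpf6, the scaffold that joins the U5 particle to U4 and U6, had the largest fall of all splicing genes. It was measured at 9.38, 9.31 and 9.27 in DMSO and at 8.63, 8.81 and 8.65 in camptothecin. The groups were separate by a wide margin, with a log2 change of -0.62 (SE 0.08, 1.53-fold lower, adjusted p = 0.00269), and -0.67 without camptothecin replicate 2. It passed even when the test asked for more than a 1.2-fold change (adjusted p = 0.0336).

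Prpf8, the core scaffold of the active site, missed the threshold by little. It was measured at 11.13, 11.15 and 11.11 in DMSO and at 10.92, 10.89 and 10.93 in camptothecin, a difference of -0.22 (SE 0.06, adjusted p = 0.0502) with no overlap. Snrnp200, the helicase that unwinds U4 from U6, differed the other way by 0.16 (SE 0.06, adjusted p = 0.141). The log2 difference between the Snrnp200 and Prpf6 clusters shifted by 0.77 between treatments, a pair also chosen after its values were seen. Prpf18, which acts in the second catalytic step, was measured at 8.10, 7.79 and 7.83 in DMSO and 8.21, 8.35 and 8.13 in camptothecin (0.32, SE 0.11, adjusted p = 0.0851). Its other cluster gave 0.33.

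Snrnp27 differed by 0.29 (adjusted p = 0.0941) and Prpf19, a ubiquitin ligase of the activated spliceosome, by 0.22 (adjusted p = 0.146). Prpf3, Prpf4 and Prpf31, proteins of the U4 and U6 part, differed by 0.11, 0.06 and 0.13, and the kinase gene Prpf4b by -0.02. Of the minor spliceosome, which removes a rare class of introns, Snrnp35 and Snrnp48 were measured and 0 passed by limma (0 had an unadjusted p under 0.05). Snrnp35 had values of 6.93, 6.76 and 6.97 in DMSO and 6.83, 7.12 and 6.66 in camptothecin. Snrnp48 had values of 8.06, 7.84 and 7.87 in DMSO and 7.88, 7.97 and 7.83 in camptothecin, so both overlapped, with changes of -0.02 and -0.03.

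In total, 9 splicing genes had an adjusted p between 0.05 and 0.1, and for each of them the groups did not overlap. These were Srsf2, Tra2a, Hnrnpc, Luc7l, Prpf39, Prpf18 and Snrnp27, which lay higher, and Snrpd1 and Prpf8, which lay lower. The share of all genes in that range of adjusted p is not given here. The lack of overlap comes from the same array values as the p and is not separate evidence of a change. Over all 67 genes, every camptothecin value lay above every DMSO value for 22 (27.1% of all genes did so) and below for 9 (15.5% of all genes).

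The promoters of 6 of the genes that changed are shown because these genes moved in opposite directions by the largest amounts or, for Srsf6 and Srsf11, lead their class. Each is the stretch of 250 bases before the RefSeq gene start in the rat assembly GRCr8, read 5′ to 3′ on the gene's strand. Capitals mark matches on either strand. The GC box was searched as GGGCGG, the motif of ETS factors as CCGGAAG and the CCAAT box by those letters. The cAMP response element was searched as TGACGTCA, which reads alike on both strands, the TATA box as TATAAA and the NRF1 motif as GCGCATGCG. Matches may touch or overlap. Luc7l3, which rose, lies on the minus strand, with the window at chr10:79773430-79773679, and holds 3 GC boxes. Snrnp70, which rose, has its window at chr1:105012852-105013101 on the minus strand, with no match. The window of Srsf6, which rose, is chr3:172008822-172009071 on the plus strand and holds 2 GC boxes. That of Srsf11, which rose, is chr2:249760259-249760508 on the minus strand, with 1 GC box directly beside 1 ETS match. Prpf6, which fell, has chr3:189084215-189084464 on the plus strand, with 2 GC boxes and 1 ETS match. Rbm39, which fell, has chr3:165156236-165156485 on the minus strand, with 2 CCAAT boxes.
Luc7l3: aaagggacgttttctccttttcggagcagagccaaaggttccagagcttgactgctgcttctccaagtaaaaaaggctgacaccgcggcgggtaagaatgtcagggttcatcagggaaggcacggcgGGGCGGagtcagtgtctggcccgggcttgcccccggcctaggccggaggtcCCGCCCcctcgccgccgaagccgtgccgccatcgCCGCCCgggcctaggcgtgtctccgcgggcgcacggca
Snrnp70: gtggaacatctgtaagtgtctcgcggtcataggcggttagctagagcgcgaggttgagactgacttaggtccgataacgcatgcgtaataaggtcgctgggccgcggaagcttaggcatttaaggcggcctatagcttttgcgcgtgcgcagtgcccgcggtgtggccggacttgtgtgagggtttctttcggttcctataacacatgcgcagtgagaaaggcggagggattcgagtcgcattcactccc
Srsf6: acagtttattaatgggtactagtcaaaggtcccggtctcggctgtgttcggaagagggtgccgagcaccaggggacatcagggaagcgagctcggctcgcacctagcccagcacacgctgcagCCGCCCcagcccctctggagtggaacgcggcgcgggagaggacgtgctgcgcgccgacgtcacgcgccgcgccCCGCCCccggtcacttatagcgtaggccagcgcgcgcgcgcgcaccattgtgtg
Srsf11: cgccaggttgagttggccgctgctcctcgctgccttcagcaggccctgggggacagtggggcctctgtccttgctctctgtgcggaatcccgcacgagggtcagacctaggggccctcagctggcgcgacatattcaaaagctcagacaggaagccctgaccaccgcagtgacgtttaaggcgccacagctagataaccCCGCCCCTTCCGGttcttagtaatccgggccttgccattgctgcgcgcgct
Prpf6: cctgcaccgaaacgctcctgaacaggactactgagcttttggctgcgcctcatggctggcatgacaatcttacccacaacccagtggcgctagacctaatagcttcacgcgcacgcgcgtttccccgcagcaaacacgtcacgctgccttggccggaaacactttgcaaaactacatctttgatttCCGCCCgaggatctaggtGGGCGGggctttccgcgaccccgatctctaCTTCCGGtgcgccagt
Rbm39: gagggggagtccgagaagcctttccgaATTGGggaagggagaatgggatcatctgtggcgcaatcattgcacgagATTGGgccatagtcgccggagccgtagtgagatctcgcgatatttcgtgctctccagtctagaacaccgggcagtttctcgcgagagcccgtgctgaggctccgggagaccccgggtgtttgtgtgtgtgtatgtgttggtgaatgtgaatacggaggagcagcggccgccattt

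Promoter windows were found for 63 of the 67 genes, 67 windows in all, since some genes have several starts. The median number of CpG dinucleotides was 19 in these windows, 12 in the 12518 windows of tested genes and 5 in all 33469 windows of the table. The ETS letters were found in 29.9% of the splicing windows, 11.2% of those of tested genes and 7.27% of all. The GC box was found in 58.2%, 47.3% and 30.5%, the CCAAT box in 49.3%, 35.4% and 34.0%, and the TATA box in 11.9%, 11.0% and 12.9%. The cAMP response element was found in 4.48%, 2.28% and 1.59%, and the NRF1 letters in 4.48%, 2.24% and 1.35%. By change, the ETS letters were in 4 of the 8 genes that rose, 1 of the 3 that fell and 13 of the 52 others with a window. A match is a description of letters and not a site of binding, and these shares were not tested.

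Genomic span is a property the choice of genes did not use. The spans of the splicing genes in GRCr8 ran from 0.713 kb (Sf3b5) to 64.2 kb (Prpf6), with a median of 14.9 kb. The 3 genes that fell spanned 64.2 kb (Prpf6), 39.9 kb (Sf3b1) and 33.4 kb (Rbm39), and the 8 that rose spanned 5.32 kb to 36.0 kb, with a median of 14.0 kb. Luc7l2 had a span of 63.4 kb, close to that of Prpf6, and a difference of 0.10.

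All falls thus lay in the 14 splicing genes of 30 to 65 kb, where 3 fell and 1 rose. Among all genes of that span 307 of 2542 fell and 164 rose. Of the 23 splicing genes under 10 kb 4 rose and 0 fell, beside 773 and 61 of 5051 genes, and of the 30 from 10 to 30 kb 3 rose and 0 fell, beside 647 and 157 of 4281. Across the 67 genes Spearman's rho of span and change was -0.09, against -0.31 across 14480 genes with a span. Both are descriptions over genes measured on the same 6 arrays.

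**Figure D4:**
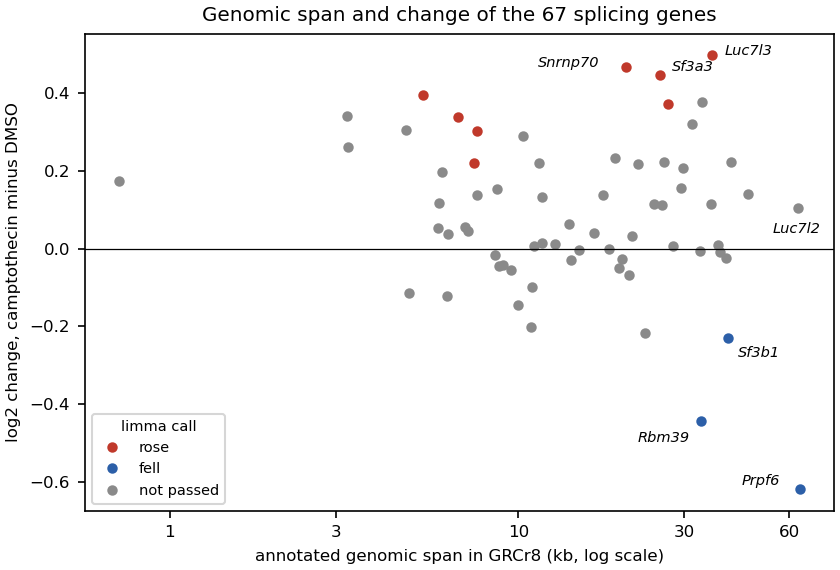
Log2 change, camptothecin minus DMSO (vertical axis), against annotated span in kb (horizontal axis, log scale) for the 67 splicing genes, coloured by limma call. The 3 falls have spans of 33.4 kb or more, and Luc7l2 at 63.4 kb lies at 0.10.

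Other splicing genes, listed apart from the names above, also went both ways. The first list held 88 measured genes of the spliceosome, the exon junction complex and related factors, among them the complex that loads Sm rings. Of these 16 rose (18.2%, against 11.3% of all genes) and 9 fell (10.2%, against 9.35%), with a median change of 0.12. The largest were Scaf8, which binds the polymerase tail (-0.87, SE 0.06, adjusted p = 0.000235), Gemin7, of the complex that loads Sm rings (0.69, SE 0.09), Syf2, a catalytic stage protein (0.62, SE 0.09), and Cwc27, a cyclophilin of the spliceosome (-0.59, SE 0.11). Scaf8 and Cwc27 span 188 kb and 211 kb, while Gemin7 and Syf2 span 9.44 kb and 7.92 kb.

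Of 35 measured regulators, among them neuronal ones, 3 rose (8.57%, against 11.3% of all genes) and 7 fell (20%, against 9.35%). Their median change was 0.05. Mbnl2, which governs developmental exon switches, changed by -0.93 (SE 0.11, adjusted p = 0.00183), and Elavl2, a neuronal RNA binding protein, by -0.61 (SE 0.06, adjusted p = 0.0013). Ptbp1, a repressor of neuronal exons that is itself an hnRNP under another symbol, rose by 0.41 (SE 0.10, adjusted p = 0.0322), and its relative Ptbp3 changed by -0.36 (SE 0.08). Syncrip, also an hnRNP under another symbol, changed by -0.29 (SE 0.07, adjusted p = 0.0256), a gene named after its value was seen. Of the same kind, Khsrp differed by 0.39 (adjusted p = 0.055), Pcbp2 by 0.18 (adjusted p = 0.179) and Raly by 0.13 (adjusted p = 0.343), and these did not pass. The count of 0 among hnRNPs above holds for the genes with an Hnrnp symbol.

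Of 9 kinases and import factors of SR proteins 1 rose (11.1%, against 11.3% of all genes) and 2 fell (22.2%, against 9.35%). Dyrk1a, which spans 118 kb, changed by -1.31 (SE 0.08, adjusted p = 0.000102), Clk2 rose by 0.59 (SE 0.10) and Clk4 changed by -0.41 (SE 0.09). Over the 3 lists together 20 of 132 measured genes rose (15.2%, against 11.3% of all genes) and 18 fell (13.6%, against 9.35%). The rises numbered 8 to 12 and the falls 7 to 15 with 1 array left out, with 8 rises without DMSO replicate 2 or 3, 9 without DMSO replicate 1, 10 without camptothecin replicate 2 and 12 without camptothecin replicate 1 or 3. Falls numbered 7 without DMSO replicate 1, 8 without DMSO replicate 3 and 9 without DMSO replicate 2 or camptothecin replicate 3.

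**Figure D5:**
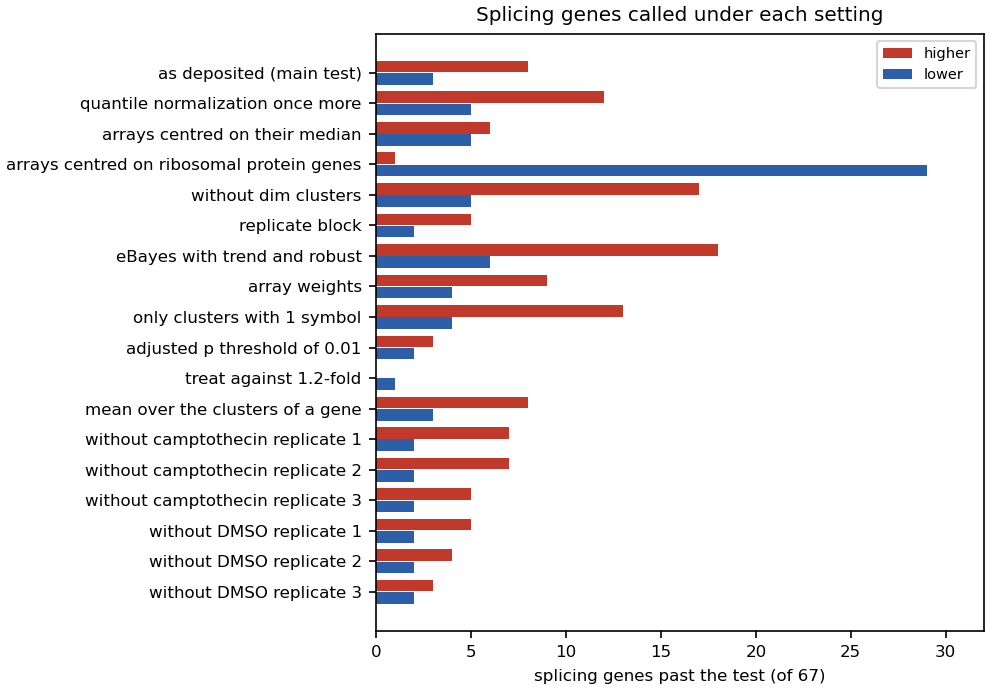
Number of the 67 splicing genes called higher or lower (horizontal axis) in the main test and under each alternative (vertical axis). The counts run from 0 higher and 1 lower with a test against a 1.2-fold change to 18 higher with eBayes trend and robust, and 29 lower with ribosomal centring.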

How the data were processed

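The authors deposited log2 expression values, 1 per transcript cluster and array, from Affymetrix Rat Gene 1.0 ST arrays hybridised with biotinylated cDNA made from 1 microg of total RNA, per the labels' protocols. RMA and the oligo package are named in the submitters' processing notes. Their versions and the build behind the probes were not given in the sources used here. Of the clusters, 15310 carried a single symbol in the platform annotation and were named; 323 carried several and 13581 none. GRCr8 gene records were used for names and spans, and RefSeq promoter windows carry GRCr8 coordinates.

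Values were tested as deposited with limma 3.58.1 in R 4.3.3 (lmFit and eBayes, two-sided), camptothecin minus DMSO, with p-values adjusted by Benjamini-Hochberg across the 29214 clusters. The fit was checked on simulated data. Intervals are 95% intervals from the same fit. The number of arrays limits the precision. Values on every array are given for the largest rises and falls past the threshold (up to 12 each) without overlap between groups and for the highest and lowest change of each class; of each list of other splicing genes, the 4 called genes with the largest change are named. Array values given for Srsf4, Hnrnpk and Prpf8 fall outside that rule and were chosen after they were seen. The splicing genes, classes and lists were chosen with earlier results of these data known. The cell type lists held markers of motor neurons, spinal interneurons, progenitors and astroglia, fibroblasts, endothelium, blood and microglia, and dividing cells. Alternatives covered scaling, dim clusters, the variance model, array weights, the clusters tested, the threshold, the replicate number and single arrays.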

Additional observations from a re-analysis of the deposited data

How the results depend on the processing

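The main test gave 8 splicing genes higher and 3 lower, with a median change of 0.06, and 20 other splicing genes higher and 18 lower. Quantile normalization gave 12 higher and 5 lower. Centring arrays on their median gave 6 and 5, with 9 other genes higher and 19 lower. Centring on 68 ribosomal protein genes gave 1 and 29, a median of -0.19 for the splicing genes beside -0.19 for all genes, and 5 other genes higher and 51 lower; Srsf5 turned to -0.031 there. Without dim clusters 17 were higher and 5 lower, with 36 other genes higher. With eBayes trend and robust 18 were higher and 6 lower, with 34 other genes higher. With only 1-symbol clusters 13 were higher. At an adjusted p of 0.01, 3 were higher and 2 lower, and 7 and 6 other genes. With treat against 1.2-fold 0 were higher and 1 lower, and 1 and 4 other genes. With 1 array left out the ranges were 3 to 7 higher and 2 lower, medians of 0.03 to 0.11, and 8 to 12 other genes higher and 7 to 15 lower. Array weights and the mean over clusters kept all 11 calls. The cause was not tested.

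The replicate number as a block gave 5 higher and 2 lower, and 8 and 9 other genes; Srsf5, Snrpg, Snrpf and Sf3b1 lost their calls. Deviations of same-numbered arrays correlated at -0.08, 0.02 and 0.08. The labels do not say whether arrays of equal number share a culture day.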
